A study of Mus musculus with 19 samples.

Results

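The 39 genes described here encode enzymes of the urea cycle and of amino acid breakdown in the liver. They were taken by gene symbol from the deposited table of counts. All 39 symbols were found among its 35976 rows, and all 39 passed the filter on low counts that left 16463 genes for testing. RNA came from whole livers of 19 mice with 3 genotypes at Pkd1, the gene of polycystin-1: 7 WT, 6 Het and 6 Homo. Every mouse, the WT controls included, received AAV-Cre, a viral vector carrying Cre recombinase, and every mouse was held for 3 months on a model of fatty liver disease (NASH) that joins a Western diet to carbon tetrachloride (CCl4), a liver toxin. The series' design text describes the animals as littermates and its title speaks of Pkd1 mutant clones. The labels give no age, sex, Cre promoter, vector dose or share of recombined cells. Each title also carries a number from 1 to 20 (5 is not used), called the mouse number here, whose meaning the labels do not state.

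The liver is the main site where surplus amino acids lose their nitrogen. Transaminases and specialised enzymes strip or move the amino group, the carbon skeletons enter glucose or energy metabolism, and the urea cycle turns the freed ammonia into urea. Hepatocytes near the portal vein carry most of this work. Many of the genes respond to glucagon, glucocorticoids and dietary protein, and the methionine cycle among them supplies methyl groups and, through transsulfuration, cysteine.

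Library totals ran from 25.8 M to 42.1 M counts, and levels are given in CPM, the share of a library's counts on a per-million scale with TMM factors. The hepatocyte list (11 genes, Alb among them) summed to 32842 to 38577 CPM over the 19 mice, with overlapping genotypes and no gene of the list at 0 throughout. Pancreatic enzyme genes stood out in 3 libraries: Pnlip, pancreatic lipase, named here after its values were seen, was at 53.8 CPM in Homo mouse 8, 89.2 CPM in Homo mouse 17 and 42 CPM in Het mouse 19, and at 0.116 CPM or less in the other 16. Main results are therefore also given without these 3 mice where they change clearly. Mouse number and genotype partly overlap, since the lowest numbers (1 to 3) belong to WT alone and the numbers 15 to 18 to Homo alone. Of all genes tested, 1054 followed the mouse number within genotypes, against 79 that differed between Homo and WT, 4 between Het and WT and 30 between Homo and Het.

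The 39 genes together took 10779 to 13227 CPM in WT (median 11790), 10084 to 12788 CPM in Het (median 10927) and 9039 to 11049 CPM in Homo (median 10107). These ranges overlapped. Per kb of exon sequence, Cps1, which makes carbamoyl phosphate for the urea cycle, had the highest mean level at 408 CPM per kb. Gnmt, which methylates glycine with S-adenosylmethionine, followed at 367 CPM per kb, Mat1a, the liver's S-adenosylmethionine synthase, at 287 CPM per kb and Hpd, a step of tyrosine breakdown, at 258 CPM per kb. The 3 lowest means over the 19 mice were those of Sdsl, a serine dehydratase-like gene, at 4.48 CPM per kb, Nags, whose product activates Cps1, at 5.29 and Gldc, of glycine cleavage, at 5.53 CPM per kb. Their ranges over the mice overlapped, and their order was not the same in every genotype. The lowest count of any of the 39 genes in any library was 118 (Sdsl).

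Between mice the genes varied by very different amounts. The highest library was only 1.32 times the lowest for Fah, the last enzyme of tyrosine breakdown, and 1.37 times for Shmt1. It was 6.38 times the lowest for Tat, tyrosine aminotransferase, which ranged from 165 CPM in Homo mouse 8 to 1054 CPM in WT mouse 1. Bhmt, which remakes methionine from homocysteine with betaine, ranged 5.88-fold, and Agxt, which removes glyoxylate, 3.66-fold. The mice were also not alike as wholes: WT mouse 13 had 35 of the 39 genes above their own mean over the 19 mice, Het mouse 19 had 33 and Homo mouse 10 had 3.

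**Figure D1:**
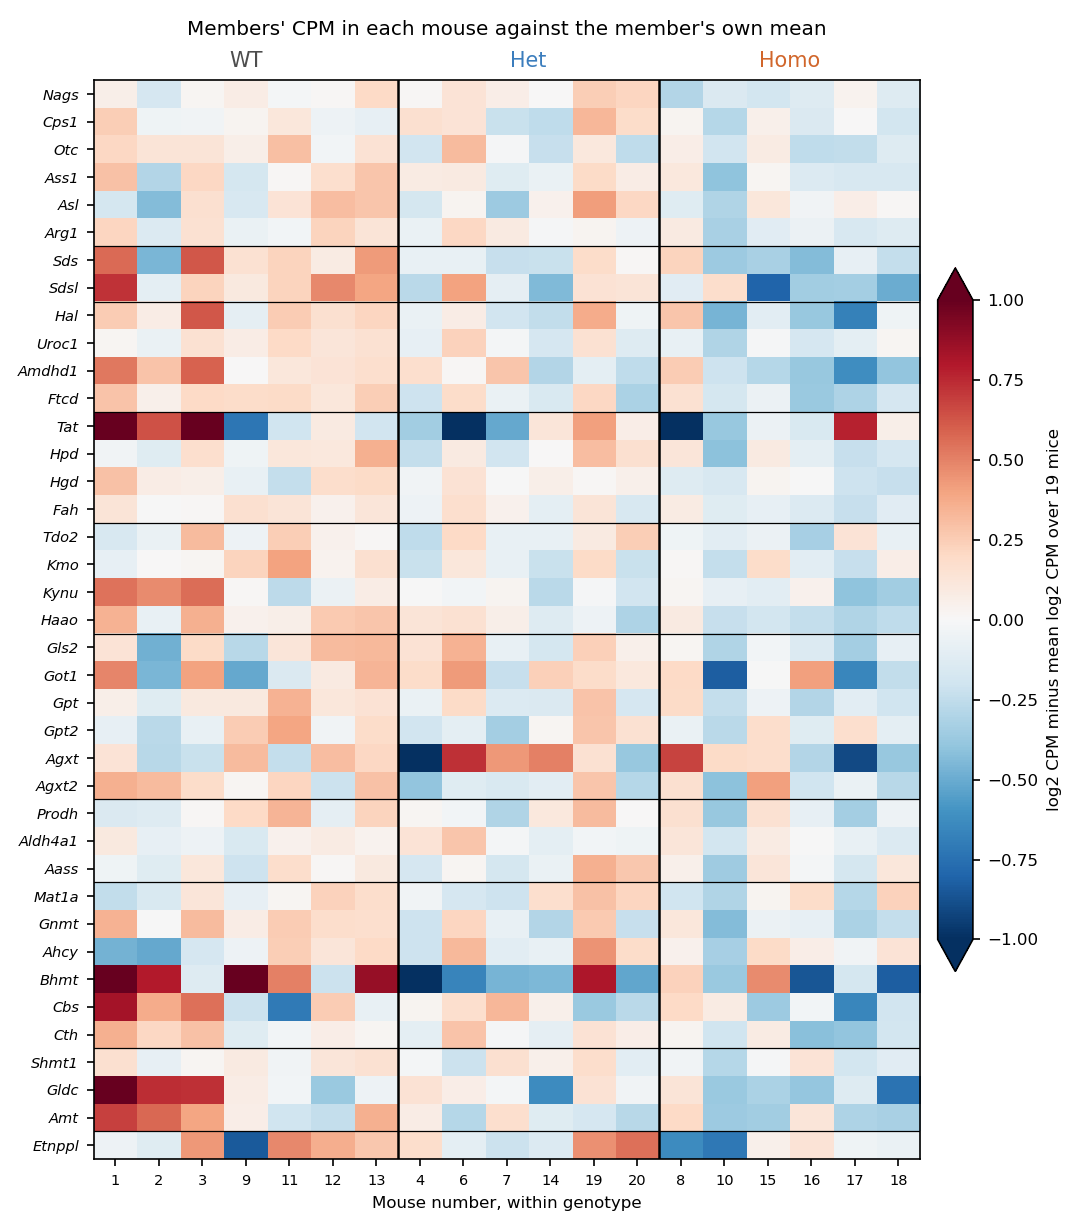
Each square is the log2 CPM of a gene (rows, grouped by pathway from the urea cycle at the top to Etnppl at the bottom) in a mouse (columns, by genotype and then mouse number), minus that gene's mean over the 19 mice; the colour scale stops at -1 and 1. Homo mice 10, 16, 17 and 18 are mostly blue, with 3 to 7 of the 39 genes above their mean, but Homo mouse 15 has 18 and Homo mouse 8 has 28. WT mouse 13 is mostly red, with 35, and WT mouse 2 has 14.

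The first comparison sets Homo livers beside WT livers. No single gene of the 39 was called (adjusted p under 0.05), while 0.48% of all genes tested were, but 38 of the 39 estimates lay below 0, Ahcy being the exception. The median log2 fold change of the 39 genes was -0.20, against 0.002 over all genes tested, of which 49.7% lay below 0. An unadjusted p under 0.05 was reached by 19 of the 39 genes and by 12.9% of all genes. By DESeq2, which called 304 of all 16463 genes, 4 of the 39 were called (Amdhd1, Ftcd, Haao and Sdsl, all lower). By limma-voom, which called 91 of all genes, none of the 39 was. The 39 genes were measured in the same mice and share their differences between mice, so their number says nothing of replication, and the set was chosen with earlier results of these data known. In bulk liver RNA, fewer hepatocytes and less of this RNA per hepatocyte cannot be told apart.

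Estimates below 0 were also the rule under other choices of mice. They were found for 36 of the 39 genes with mouse number as a covariate (median -0.22), for 37 without mice 1 to 3 (median -0.20), for 36 within mice 8 to 13 alone (2 Homo and 4 WT, median -0.21) and for 37 without mice 8, 17 and 19 (median -0.23). Leaving out any 1 mouse left 37 or 38 genes below 0. None of the 39 had Homo and WT CPM ranges that did not overlap. Of all genes tested 0.911% had such ranges, a share so low that 39 genes may well hold none.

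Haao, which turns a tryptophan breakdown product into quinolinate, the precursor of NAD (chromosome 17, 83831348 to 83848981, GRCm38; the chromosome that also carries Pkd1), had the smallest p. It was at 629 to 850.1 CPM in WT (median 796), 536 to 738 CPM in Het (median 666) and 539.5 to 708 CPM in Homo (median 565). In Homo, 5 of the 6 mice lay below the lowest WT mouse, and only mouse 8 lay within the WT range. Its log2 fold change was -0.37 ± 0.09 (adjusted p = 0.071), with adjusted p = 0.0417 without WT mouse 2 and 0.0272 without Homo mouse 8. Haao was called in only these 2 of the 19 fits that left out 1 mouse, and its adjusted p went up to 0.16. Amdhd1, an enzyme of histidine breakdown (chromosome 10, 93523338 to 93540111), was at 86.9 to 131 CPM in WT (median 97.9), 71 to 106 CPM in Het (median 84.2) and 56.5 to 104 CPM in Homo (median 69.1). Again 5 of the 6 Homo mice lay below the lowest WT mouse. Its estimate was -0.52 ± 0.13 (adjusted p = 0.0841). With 1 mouse left out it was called only without Homo mouse 8 (adjusted p = 0.0184), and adjusted p went up to 0.185. Amdhd1 also followed the mouse number, and within mice 8 to 13 its estimate was -0.07 ± 0.13. Haao within those mice was -0.23 ± 0.12. The slope of Haao on the number was not called (-0.16 ± 0.06 log2 per 10 mouse numbers, adjusted p = 0.126). That slope was nonetheless below 0 in each genotype (-0.02 in WT, -0.22 in Het and -0.27 in Homo). Het mice 14, 19 and 20 were at 608, 641 and 536 CPM, and Homo mice 15 to 18 at 540 to 584 CPM. Homo mouse 8, the highest for Haao in Homo, has the lowest number of that genotype.

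Ftcd, which closes histidine breakdown by handing a formimino group to folate, was at 340.4 to 399.6 CPM in WT (median 374), 263 to 379.8 CPM in Het (median 304) and 254 to 366 CPM in Homo (median 292). The WT mice lay close together, and 5 of the 6 Homo and 4 of the 6 Het mice lay below all of them. Its log2 fold change in Homo was -0.33 ± 0.09 (adjusted p = 0.123). With 1 mouse left out it passed only without Homo mouse 8 (adjusted p = 0.0439), and adjusted p went up to 0.245. Sdsl was at 6.06 to 10.7 CPM in WT (median 7.56), 4.77 to 8.58 CPM in Het (median 6.59) and 3.72 to 7.34 CPM in Homo (median 5.11). It too had 5 of the 6 Homo mice below the lowest WT mouse, and its estimate was -0.60 ± 0.16 (adjusted p = 0.115). Sds, the serine dehydratase that lies beside Sdsl on chromosome 5, stood at -0.45 ± 0.14 (adjusted p = 0.174). With 1 mouse left out Sds passed only without WT mouse 2 (log2 fold change -0.55, adjusted p = 0.0427). Its adjusted p went up to 0.33 in the other such fits.

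By pathway, the lowest medians in Homo were those of the serine dehydratases (-0.53), of glycine cleavage with Shmt1 (-0.42) and of histidine breakdown (-0.38). All 4 histidine enzymes were below 0 with an unadjusted p under 0.05. Hal, which opens the pathway, was at -0.43 ± 0.14 and Uroc1, its next step, at -0.20 ± 0.07. In glycine cleavage, Gldc was at -0.67 ± 0.20 and Amt, its partner in the complex, at -0.42 ± 0.15, but within mice 8 to 13 they were at -0.02 and -0.08, while Shmt1, which interconverts serine and glycine, was at -0.14 ± 0.07. The 6 urea cycle genes were all below 0 but by less, with a median of -0.18: Otc, which forms citrulline, was at -0.24 ± 0.09, Ass1 and Asl, which build and split argininosuccinate, at -0.20 ± 0.10 and -0.08 ± 0.12, Arg1, which releases urea, at -0.19 ± 0.07, Cps1 at -0.11 ± 0.09 and Nags at -0.17 ± 0.07. The 4 tryptophan enzymes had a median of -0.26, with Tdo2, the entry step, at -0.13 ± 0.09, Kmo at -0.16 ± 0.09 and Kynu, kynureninase, at -0.36 ± 0.12. The 4 tyrosine enzymes had a median of -0.19: Hpd, Hgd and Fah lay between -0.19 and -0.18, and Tat at -0.54 ± 0.33. None of these genes was called.

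Estimates in the methionine cycle were uneven. Gnmt was at -0.35 ± 0.10 (adjusted p = 0.14) and Bhmt at -0.85 ± 0.31 (adjusted p = 0.256), while Mat1a was at -0.06 ± 0.11 and Ahcy, which clears S-adenosylhomocysteine, at 0.08 ± 0.13. Cbs and Cth, the steps of transsulfuration, were at -0.35 ± 0.20 and -0.29 ± 0.10. Of the glutaminase and transaminase genes, Gls2 (liver glutaminase), Got1, Gpt, Gpt2, Agxt and Agxt2 all lay between -0.22 and -0.06, with only Gpt under an unadjusted p of 0.05. Proline and lysine breakdown lay nearest to 0, with Prodh at -0.15 ± 0.11, Aldh4a1 at -0.03 ± 0.07 and Aass at -0.04 ± 0.10. Etnppl, which degrades phosphoethanolamine, was at -0.31 ± 0.19. Many single estimates moved with the choice of mice. With mouse number as a covariate, Gldc was at -0.34, Amt at -0.21, Kynu at -0.16, Cth at -0.21 and Cbs at 0.001 ± 0.16. Within mice 8 to 13, Kynu was at 0.01, Cth at -0.08, Cbs at 0.28 and Agxt at 0.28, so the estimates of Kynu, Cbs and Agxt lay above 0 there. Others lay lower within those mice than over all mice: Etnppl was at -0.83, Gpt2 at -0.38, Asl at -0.37, Mat1a at -0.35 and Ahcy at -0.28. Without mice 1 to 3 Tat was at 0.18 in place of -0.54.

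**Figure D2:**
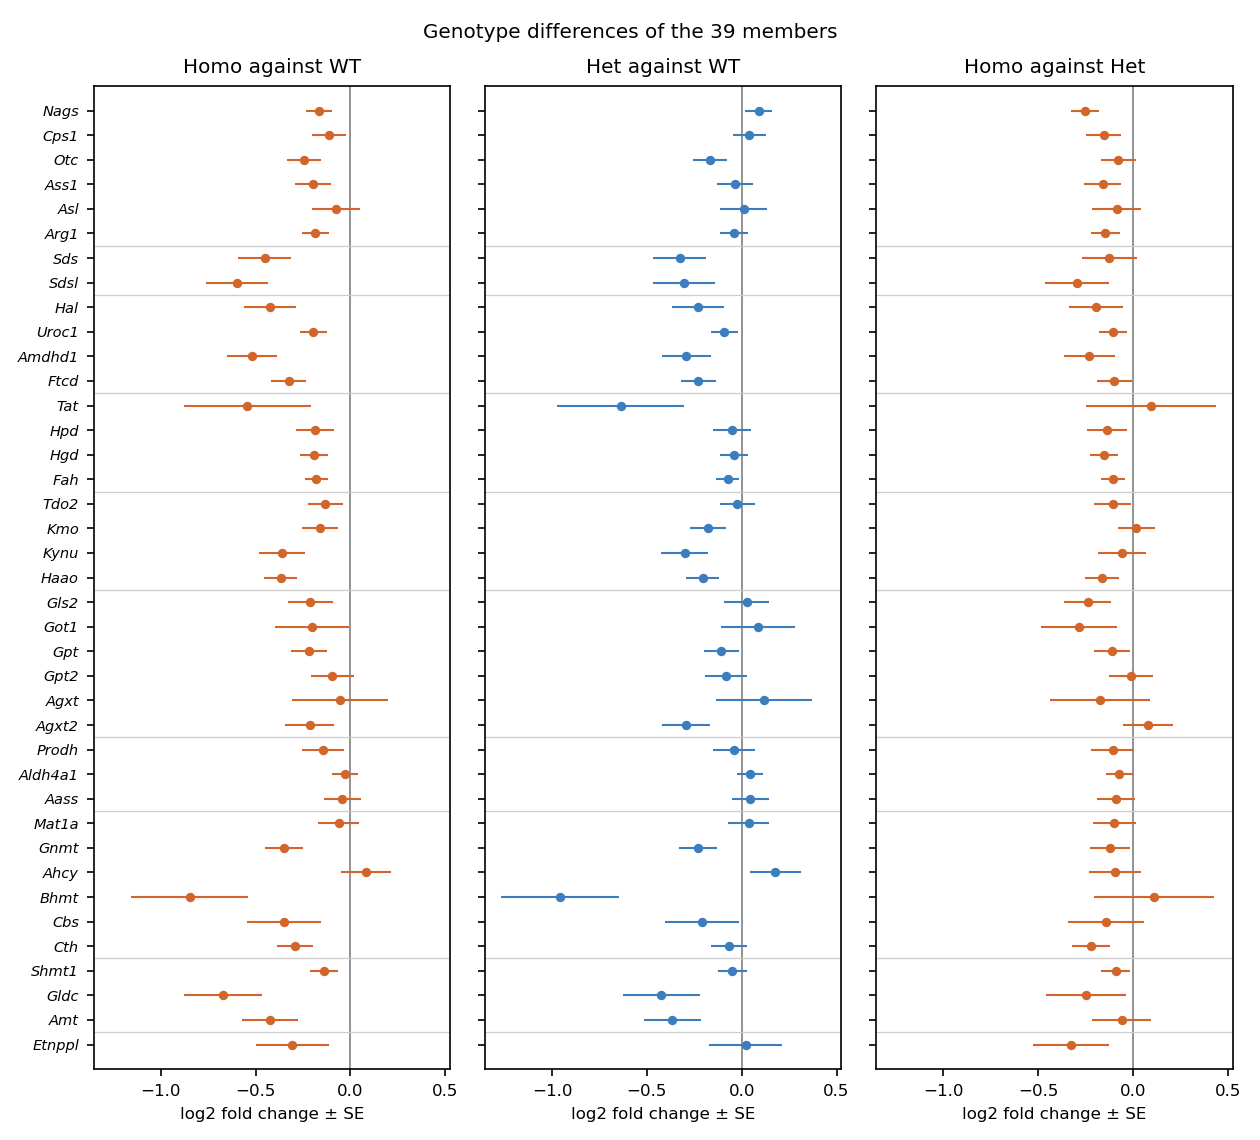
Points are log2 fold changes of the 39 genes in each genotype comparison and bars are their SE, with grey lines between pathways; WT controls are shared by the first 2 panels. In Homo against WT 38 of 39 points lie left of 0, in Het against WT 28 and in Homo against Het 35, and no point is called in any panel.

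Lists of other liver genes did not all lie on the same side in Homo. Of 21 genes of branched-chain amino acid breakdown 15 were below 0 (median -0.118), with Pcca at -0.21 ± 0.06 (adjusted p = 0.149) as the smallest p, and of 38 genes of other breakdown steps 33 were below 0 (median -0.125). Ethe1, a mitochondrial enzyme of sulfide disposal, had the smallest p of that list at -0.64 ± 0.15 (adjusted p = 0.0608). Of 16 transporters 10 were below 0 (median -0.031), and of 14 genes of amino acid synthesis and the shortage response 7 were (median 0.004). All 15 genes of the unfolded protein response were below 0 (median -0.35), and so were 15 of 20 genes of the glucagon, glucocorticoid and fasting response (median -0.10). Hepatocyte markers had 8 of 11 genes below 0 (median -0.11), but other periportal markers, which share the zone of most of the 39 genes, had 3 of 10 (median 0.14) and hepatocyte transcription factors 4 of 12 (median 0.17). Markers of the opposite, pericentral zone had 4 of 14 below 0 (median 0.03), and circadian clock genes 9 of 16 (median -0.05). No gene of these 11 lists was called in Homo against WT by edgeR, against 0.48% of all genes tested. Of 9 bile duct cell markers tested 3 rose, Krt7 (3.06 ± 0.40), Krt19 (2.50 ± 0.39) and Muc1 (1.83 ± 0.37). The summed level of all 11 bile duct markers in the table was 135 to 229 CPM in WT, 131 to 209 CPM in Het and 203 to 267 CPM in Homo, with no marker at 0 throughout. Their part in the estimates of the 39 genes was not tested. No gene was called among the markers of stellate cells (12 tested), macrophages (11), endothelial cells (8), lymphocytes (7) or neutrophils (2).

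Het against WT, which shares the WT controls with the comparison above, called 0 of the 39 genes by edgeR, DESeq2 or limma-voom, and 0.0243% of all genes by edgeR. An unadjusted p under 0.05 was reached by 10 of the 39 genes and by 8.84% of all genes. The estimates were below 0 for 28 genes (median -0.07, all genes -0.004). Without mice 8, 17 and 19 they were below 0 for 34 genes (median -0.12). An unadjusted p under 0.05 was then reached by 14 genes and by 8.42% of all genes. None of the 39 had separate Het and WT ranges, against 0.194% of all genes. Bhmt had the smallest p, at 99.2 to 274 CPM in WT (median 199), 46.6 to 201 CPM in Het (median 81.9) and 63.5 to 159.8 CPM in Homo (median 95.6). In Het, 5 of the 6 mice lay below the lowest WT mouse, and mouse 19, at 201 CPM, was the exception. Its log2 fold change was -0.96 ± 0.31 (adjusted p = 0.42), and -0.98 ± 0.35 without mice 1 to 3. Next came Ftcd at -0.23 ± 0.09 (adjusted p = 0.507), Kynu at -0.30 ± 0.12 (adjusted p = 0.516) and Amt at -0.37 ± 0.15 (adjusted p = 0.516). Kynu was at 186 to 328 CPM in WT (median 235), 184 to 227 CPM in Het (median 219) and 169 to 229 CPM in Homo (median 208), and all 6 Het mice lay below the WT median. Amt was at 13.5 to 25.6 CPM in WT (median 20.3) and 13.1 to 17.9 CPM in Het (median 14.4). Both estimates came close to 0 without mice 1 to 3, at -0.02 for Kynu and -0.11 for Amt. The urea cycle showed no common direction in Het, with 3 genes on each side of 0.

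Homo against Het, which shares its mice with both comparisons above, called 0 of the 39 genes by edgeR, DESeq2 or limma-voom, and 0.182% of all genes by edgeR. An unadjusted p under 0.05 was reached by 2 of the 39, Nags and Cth, and by 6.29% of all genes, so the share of single genes was no higher than over all genes. Even so, 35 estimates lay below 0 (median -0.11, all genes -0.001), and 36 did within mice 14 to 20, where both genotypes are present (median -0.17). Without mice 8, 17 and 19, 33 estimates lay below 0 (median -0.13). None of the 39 had separate Homo and Het ranges, against 0.686% of all genes. Nags was at 13.3 to 17.2 CPM in WT (median 15.1), 15 to 17.7 CPM in Het (median 16) and 12.2 to 15.3 CPM in Homo (median 13.6), and 5 of the 6 Homo mice lay below the lowest Het mouse. Its log2 fold change was -0.25 ± 0.07 (adjusted p = 0.284). Cth, which makes cysteine from cystathionine, was at 68.1 to 94.7 CPM in WT (median 77.5), 69.3 to 90.1 CPM in Het (median 75.6) and 55.3 to 78.6 CPM in Homo (median 64.9), with a log2 fold change of -0.22 ± 0.10 (adjusted p = 0.78). Hgd, homogentisate oxidase, followed at -0.15 ± 0.07 (adjusted p = 0.809) and Arg1 at -0.15 ± 0.08 (adjusted p = 0.825). Hgd was at 257 to 291 CPM in Het (median 269) and 224 to 269 CPM in Homo (median 238), and Arg1 at 286 to 344 CPM in Het (median 300.5) and 239 to 319 CPM in Homo (median 275). In both genes the Homo and Het mice overlapped.

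More of the 39 genes were called for the mouse number than in any genotype comparison. In a fit with genotype as a factor, 7 of the 39 genes followed the number, against 6.4% of all genes. Asl, Mat1a, Gpt2 and Ahcy rose (3.17% of all genes did) and Amdhd1, Cbs and Kynu fell (3.23% of all genes did). The direction of the whole set was even, with 20 slopes above and 19 below 0 (median 0.007, all genes -0.003). Slopes are log2 changes per 10 mouse numbers. Since the labels do not say what the number stands for, a slope says only how levels lined up with it.

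Asl was at 401, 335 and 507 CPM in WT mice 1 to 3, at 562 and 551 CPM in WT mice 12 and 13, and at 605 and 524 CPM in Het mice 19 and 20. Across genotypes it was at 335 to 562 CPM in WT (median 499), 353 to 605 CPM in Het (median 465) and 368 to 491 CPM in Homo (median 450.4), so the genotypes overlapped, and the highest mice were 19, 12 and 13. Its slope was 0.33 ± 0.07 (adjusted p = 0.0107). Mat1a was at 831 to 1158 CPM in WT (median 1001), 855 to 1205 CPM in Het (median 1035) and 798 to 1159 CPM in Homo (median 931), with 831 CPM in mouse 1 and 1144 CPM in mouse 20, and its slope was 0.28 ± 0.06 (adjusted p = 0.0146). Homo mouse 17, at 807 CPM, lay far below its neighbours in number. Gpt2, a mitochondrial alanine transaminase, was at 187 to 295 CPM in WT (median 219), 177 to 272 CPM in Het (median 219) and 186 to 253 CPM in Homo (median 212), with a slope of 0.28 ± 0.07 (adjusted p = 0.0159). The highest mouse of all was WT mouse 11, in the middle of the numbers, and Het mouse 7 was the lowest.

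Ahcy was at 80.2, 78.1 and 98.9 CPM in WT mice 1, 2 and 3, while the later 4 WT mice had 107 to 132 CPM and lay above them all. In Het it was at 96.2 to 151 CPM (median 116) and in Homo at 88.3 to 127 CPM (median 115). The slope was 0.32 ± 0.08 (adjusted p = 0.0313) and the least stable of the 4: it was called in 11 of the 19 fits that left out 1 mouse, and lost without mouse 1, 2, 4, 7, 10, 12, 13 or 19 (adjusted p up to 0.0836).

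Among the genes that fell, Amdhd1 was at 126, 106 and 131 CPM in WT mice 1 to 3, at 97.8, 87.5 and 106 CPM in Het mice 4, 6 and 7, and at 56.5 to 81 CPM in the 7 mice from 14 to 20. Its slope was -0.35 ± 0.07 (adjusted p = 0.00611), and it had the same sign in each genotype (-0.34 ± 0.12 in WT, -0.26 ± 0.10 in Het and -0.64 ± 0.16 in Homo). Cbs, which joins homocysteine to serine, reached 625.1, 456 and 517 CPM in WT mice 1, 2 and 3, whereas the remaining mice had 216 to 443 CPM, all lower. Its slope was -0.49 ± 0.12 (adjusted p = 0.016). Its Het mice had a median of 362 CPM and its Homo mice of 327 CPM, and the 2 genotypes overlapped.

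Kynu was set apart in the lowest numbers: WT mice 1 to 3 were at 324, 309 and 328 CPM, and the remaining 16 spanned 169 to 235 CPM (median 216), with no overlap. Its slope of -0.28 ± 0.08 (adjusted p = 0.0371) was called in 10 of the 19 fits that left out 1 mouse, and lost without mouse 1, 2, 3, 7, 8, 12, 13, 14 or 18 (adjusted p up to 0.0899). Gldc, which was not called (slope -0.43 ± 0.13, adjusted p = 0.0596), looked alike: WT mice 1 to 3 were at 66.6, 53.5 and 53.1 CPM and the other 16 at 19.1 to 35.4 CPM. DESeq2 and limma-voom called it (adjusted p = 0.024 and 0.0381).

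Mice 1 to 3 therefore bear on several of these slopes. Without them, Asl (0.33, adjusted p = 0.0396) and Mat1a (0.30, adjusted p = 0.0486) were still called and Amdhd1 kept its slope (-0.34) at adjusted p = 0.0565. Kynu was at -0.13, Gldc at -0.18, Cbs at -0.35, Ahcy at 0.21 and Gpt2 at 0.25, none called. Without mice 8, 17 and 19, the libraries with pancreatic transcripts, 4 genes were called (Amdhd1, Gldc, Kynu and Mat1a), and Asl, Gpt2, Ahcy and Cbs had adjusted p from 0.0529 to 0.0665.

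**Figure D3:**
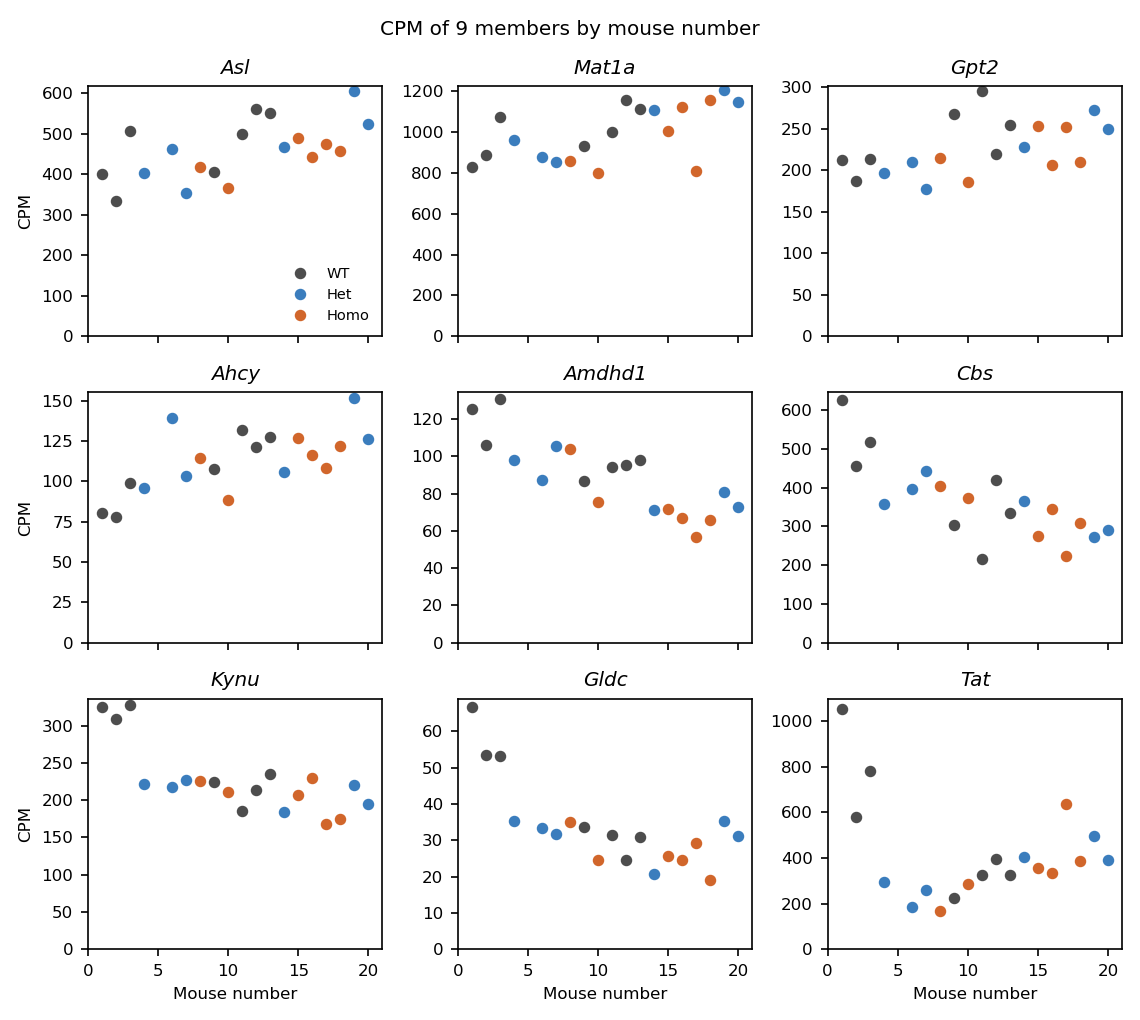
CPM of 9 genes (vertical axes, from 0) against mouse number (horizontal), with 1 point per mouse coloured by genotype. Asl, Mat1a, Gpt2 and Ahcy tend upward and Amdhd1 and Cbs downward, while Kynu and Gldc are high in WT mice 1 to 3 and lower in all others, and Tat is high in WT mice 1 to 3, lowest in mouse 8 and higher again at later numbers.

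Promoter sequence was read for the genes that moved with the number and have an entry in the RefSeq promoter table (GRCm38.p6), to let the 2 that rose be set beside the 2 that fell, together with Tat, whose slope differed between genotypes. Of the 39 genes, 29 have an entry; Asl, Mat1a and Kynu, also called, are among the 10 without one. Bases run 5′ to 3′ on the gene's strand from 250 bases before the start site. Exon and UTR bases were left off. Capitals mark a match to a motif searched on both strands.
Ahcy (chr2:155074498-155074747, minus strand): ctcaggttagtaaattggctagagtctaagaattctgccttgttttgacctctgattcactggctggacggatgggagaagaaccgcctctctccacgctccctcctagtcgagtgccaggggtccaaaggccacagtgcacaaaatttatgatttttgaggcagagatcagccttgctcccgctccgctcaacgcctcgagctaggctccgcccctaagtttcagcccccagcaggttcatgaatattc
Gpt2 (chr8:85492326-85492575, plus strand): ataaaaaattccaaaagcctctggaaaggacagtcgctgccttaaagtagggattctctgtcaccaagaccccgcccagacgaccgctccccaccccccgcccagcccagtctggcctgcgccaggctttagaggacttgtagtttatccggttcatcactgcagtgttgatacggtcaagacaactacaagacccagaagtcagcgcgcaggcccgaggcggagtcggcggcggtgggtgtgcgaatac
Amdhd1 (chr10:93540112-93540283, minus strand): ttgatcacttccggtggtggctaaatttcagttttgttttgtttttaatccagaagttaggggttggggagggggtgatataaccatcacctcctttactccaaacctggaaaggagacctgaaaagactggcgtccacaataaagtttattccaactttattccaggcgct
Cbs (chr17:31637239-31637455, minus strand): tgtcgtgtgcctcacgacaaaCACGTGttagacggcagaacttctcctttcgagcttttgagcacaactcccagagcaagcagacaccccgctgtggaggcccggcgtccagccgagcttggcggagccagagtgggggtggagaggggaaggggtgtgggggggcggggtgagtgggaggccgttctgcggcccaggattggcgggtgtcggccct
Tat (chr8:109990186-109990435, plus strand): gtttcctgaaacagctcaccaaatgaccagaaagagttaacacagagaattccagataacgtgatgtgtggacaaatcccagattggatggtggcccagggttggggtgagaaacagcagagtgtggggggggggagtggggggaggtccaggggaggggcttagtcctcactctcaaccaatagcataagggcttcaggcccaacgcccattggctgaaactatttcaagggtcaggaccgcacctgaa
The Amdhd1 and Cbs stretches end 79 and 34 bases before the start site, where the annotations place transcribed sequence, and the RefSeq record of Tat begins further upstream, so its stretch lies within the gene. GC content was 52.8% for Ahcy, 57.6% for Gpt2, 43% for Amdhd1, 65.4% for Cbs and 53.6% for Tat. The only match in these 5 was an E-box (CACGTG) in Cbs, a motif present in 6.02% of all 32851 windows and in 2 of the 31 windows of the 39 genes (Ass1 and Cbs). The other motifs, none of which contains another, were the TATA box (TATAAA, 12.4% of all windows and 6 of 31), the cAMP response element half-site (TGACG, 17.8% and 3), the C/EBP palindrome (TTGCNNAA, 9.56% and 3), the glucocorticoid receptor half-site (AGAACA, 16.1% and 2) and an HNF4 site (CAAAGTCCA, 0.384% and 2, both Agxt2). A match is a run of letters and not a bound site, and no match says only that these letters are not in the window.

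With a slope of its own for each genotype, 5 of the 39 genes followed the number within WT, against 5.05% of all genes. Ahcy rose (0.56 ± 0.14, adjusted p = 0.0258), and Gldc (-0.99 ± 0.17, adjusted p = 0.00283), Kynu (-0.57 ± 0.11, adjusted p = 0.00608), Tat (-1.27 ± 0.27, adjusted p = 0.012) and Cbs (-0.71 ± 0.20, adjusted p = 0.0453) fell. Cbs passed narrowly and was lost in 15 of the 19 fits that left out 1 mouse (adjusted p up to 0.248), Ahcy was lost without mouse 1, 2, 11 or 13 (up to 0.127) and Tat without mouse 1 (0.115). Without mice 8, 17 and 19 Cbs was not called within WT either (adjusted p = 0.0604). The WT slopes rest on mice 1 to 3: without them all 5 had adjusted p = 1, and Kynu, Cbs and Tat had positive slopes (0.15, 0.85 and 1.66), each from only 4 WT mice. Within Het (0.717% of all genes) and within Homo (0.152% of all genes) none of the 39 was called, while 9 and 5 of them had an unadjusted p under 0.05. All 7 genes called with a common slope had 1 sign in the 3 genotypes, and 18 of the 39 genes did in all. The common slope is taken from the same mice and favours genes whose slopes agree, so this agreement is no separate evidence.

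Tat was the only gene of the 39 whose slope differed among genotypes (adjusted p = 0.0156; 0.62% of all genes). It was at 1054, 578 and 782 CPM in WT mice 1, 2 and 3, while the later 4 WT mice had 226 to 396 CPM, without overlap. Het mice 4, 6 and 7 were at 292, 187 and 261 CPM and Het mice 14, 19 and 20 at 404, 494 and 389.8 CPM, all higher. Homo mice 8 and 10 were at 165 and 286 CPM, and the 4 Homo mice from 15 to 18 at 335 to 636 CPM, again all higher. The slopes were -1.27 ± 0.27 in WT, 0.59 ± 0.23 in Het and 1.34 ± 0.42 in Homo. The difference was not called without mouse 1 (adjusted p = 0.094), without mouse 8 (0.0526), without mice 8, 17 and 19 together (0.12) or without mice 1 to 3 (0.959). In the 16 mice from 4 to 20, Tat rose with the number under a common slope (0.79 ± 0.18, adjusted p = 0.0345).

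**Figure D4:**
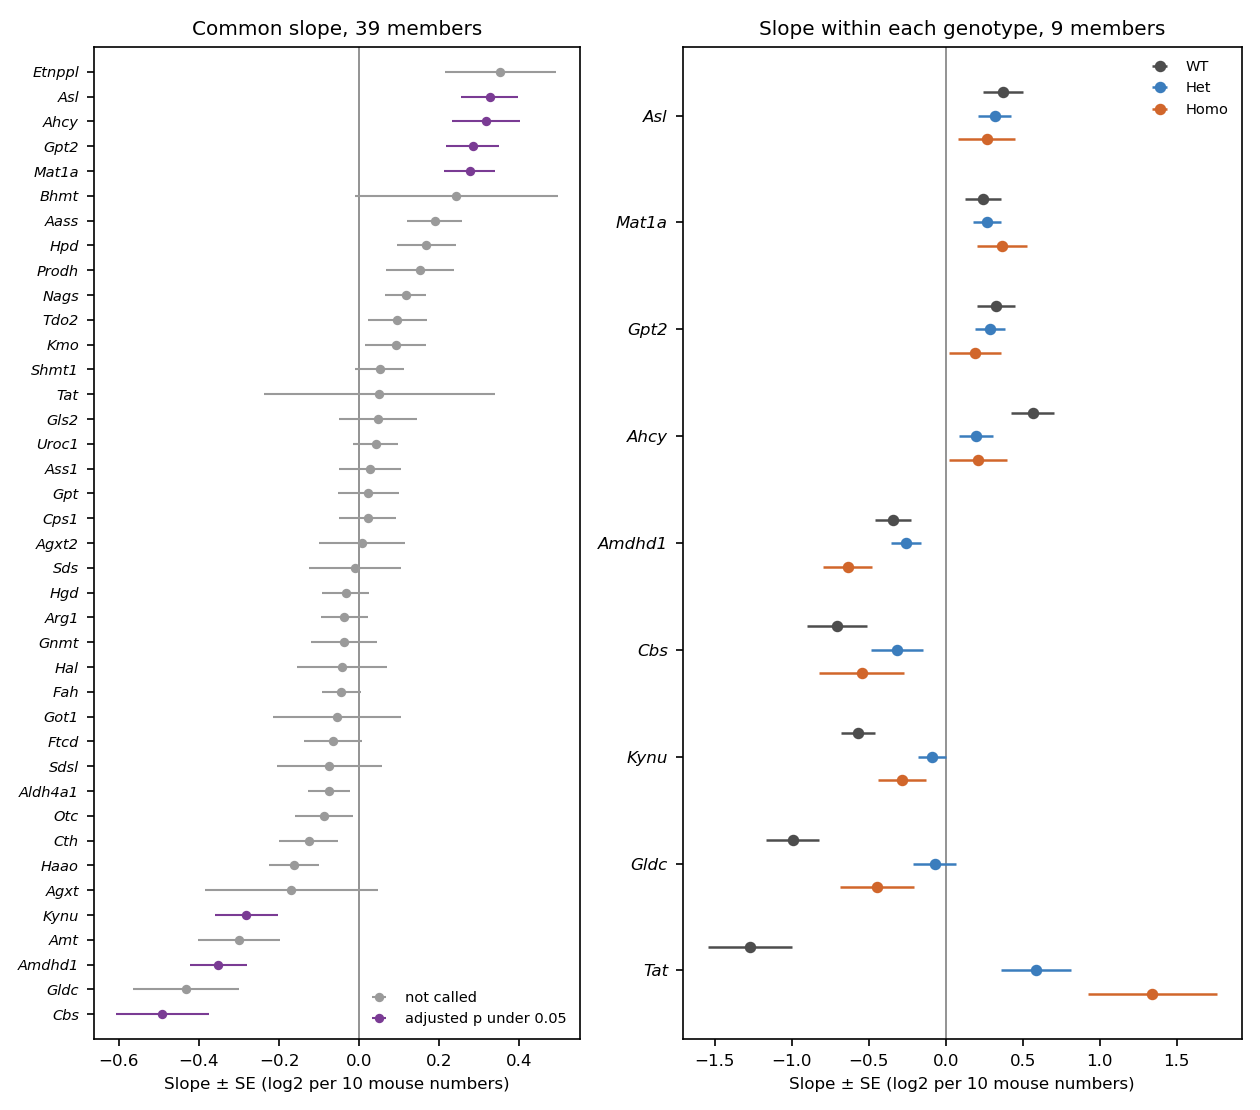
Left, the common slope of each of the 39 genes (log2 per 10 mouse numbers) with its SE, purple where called; right, slopes within WT, Het and Homo for 9 genes. The purple points are Asl, Ahcy, Gpt2 and Mat1a on the right of 0 and Kynu, Amdhd1 and Cbs on its left, and Tat alone has WT far left of 0 (-1.27) and Homo far right (1.34).

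Other gene lists held slopes that differed among genotypes as well, as did 0.62% of all genes. In the list of glucagon, glucocorticoid and fasting response genes, which excludes Tat, 4 of 20 were called: Igfbp1, Klf15, Tsc22d3 and Cebpa. Tsc22d3, a glucocorticoid target, had slopes of -1.12 ± 0.29 in WT, 0.67 ± 0.24 in Het and 1.23 ± 0.43 in Homo (adjusted p of the difference = 0.0347), in the order that Tat showed. The slopes of Igfbp1, Klf15 and Cebpa are not reported here, so Tsc22d3 does not stand for the list. Of 16 circadian clock genes 4 were called, Arntl, Dbp, Per3 and Tef. Arntl, a core activator of the clock, was at 20.3 to 65.4 CPM in the first 3 mice, against 6.66 to 30 CPM in the rest. Whether hormone state, feeding or time of day bears on the level of Tat was not tested.

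Under the common slope, other genes of amino acid breakdown also moved in both directions. Of all genes tested, 6.4% were called for this slope, 3.17% higher and 3.23% lower with the number. Of 38 genes of other breakdown steps, 1 rose, Afmid of tryptophan breakdown (0.44 ± 0.11, adjusted p = 0.0212), and 4 fell: Grhpr (-0.27 ± 0.04, adjusted p = 0.00186), Ethe1 (-0.42 ± 0.08, adjusted p = 0.0026), Kyat1 (-0.31 ± 0.07) and Qdpr (-0.27 ± 0.07). Of 21 genes of branched-chain amino acid breakdown 4 were called, 3 higher and 1 lower. Dbt, a subunit of the branched-chain keto acid dehydrogenase (0.31 ± 0.07), Ppm1k (0.37 ± 0.09) and Auh (0.25 ± 0.06) rose. No transporter of the 16 was called, and of 14 genes of amino acid synthesis and the shortage response only Atf5, a stress-responsive transcription factor, was (-0.64 ± 0.10, adjusted p = 0.00115). Among 12 hepatocyte transcription factors 5 rose, Nr1h4, Prox1 and Ppara among them, and of the 11 hepatocyte markers only Ttr was called (-0.28 ± 0.06). The unfolded protein response list had 11 of 15 genes that fell. The part of these lists in the slopes of the 39 genes was not tested.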

How the data were processed

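Total RNA of 19 whole livers was sequenced, 1 library per mouse (7 WT, 6 Het and 6 Homo, by the labels). The deposited file holds raw counts per gene symbol, which the authors made with STAR 2.7.2b and featureCounts 1.6.4 on GRCm38, per the submitters' processing notes. Annotation, strand setting and the treatment of multi-mapping reads are not named there; 7 of the 39 genes (Nags, Sds, Gls2, Agxt2, Aldh4a1, Bhmt and Shmt1) share exon bases with another annotated gene, so their counts are less certain. The table's 27 date-like symbols, at most 0.174% of a library, stayed in.

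Genes were filtered with filterByExpr and scaled with TMM, and genotype differences and slopes were tested with edgeR 4.0.16 quasi-likelihood F tests (R 4.3.3) with Benjamini-Hochberg adjustment over all 16463 genes. Called means an adjusted p under 0.05. SE is the log2 estimate over the square root of F. Slopes come from fits with genotype and mouse number. The mice are separate animals, and their number and, for low genes such as Sdsl and Nags, the counts limit precision. The script was tested on simulated data. Alternatives were DESeq2 1.42.0, limma 3.58.1 (voom), other scalings, filters and sets of mice. The 39 genes, their 10 groups and the 18 other lists were chosen with earlier results of these data known. Values by mouse are given for called genes and, where fewer than 4 were called, for the 4 of smallest p. Some genes of the other lists and 1 motif are not reported here.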

Additional observations from a re-analysis of the deposited data

Results flagged for a closer look

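Tat was singled out because its slope on mouse number differed between genotypes, by a test of the difference itself (edgeR, adjusted p = 0.0156). Its slope was below 0 in WT and above 0 in Het and Homo.

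Single mice stood apart from the rest of their genotype in 2 of the 117 groups examined. That is a smaller share than the 1 in 20 or so that chance gives. For Haao in Homo, mouse 8 was at 707.6 CPM and the other 5 mice at 539.5 to 584.3 CPM, so the gap took a share of 0.706 of the whole range. For Gldc in Het, mouse 14 was at 20.7 CPM and the other 5 at 31.2 to 35.4 CPM, a share of 0.769. Mouse 8 is also among the 3 libraries with pancreatic transcripts.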

How the results depend on the processing

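Het against WT and Homo against Het called 0 of the 39 genes under every alternative run. Homo against WT called 0 under 10 of 12 alternatives other than leaving out 1 mouse, 4 by DESeq2 and 2 at an adjusted p under 0.10, and 0 to 3 when 1 mouse was left out. The slope on mouse number called 7 genes, and 5 to 8 with 1 mouse left out. It called 3 without mice 1 to 3, 4 without mice 8, 17 and 19, and 0 within Het and 0 within Homo, which use fewer mice. With 1 mouse left out it also called Haao (without mouse 2), Amt (6), Etnppl (9) and Gldc (17, 19 or 20). The difference of slopes called 1 gene, 0 to 2 with 1 mouse left out (Gldc was added without mouse 14), 0 without mice 1 to 3 and 0 without mice 8, 17 and 19. Tat changed sign from the common slope to -1.27 within WT, and within WT without mice 1 to 3 Tat was at 1.66, Kynu at 0.15 and Cbs at 0.85. The cause was not tested. Over all genes, Homo against WT called 79 by edgeR, 304 by DESeq2, 38 with the number in the model, 25 after dropping mice 1 to 3, 2 in mice 8 to 13, 51 without mice 8, 17 and 19 and 35 to 122 with 1 mouse left out; Het against WT called 4 by edgeR, 28 by DESeq2 and 4 to 7 with 1 mouse left out; Homo against Het called 30 by edgeR, 102 by DESeq2, 16 by limma-voom, 20 with no filter, 20 with only those genotypes, 14 without mice 8, 17 and 19, 9 to 34 with 1 mouse left out and 0 within mice 14 to 20. The slope called 1054, 1713 by DESeq2, 1820 with no genotype term, 358 without mice 1 to 3, 744 without mice 8, 17 and 19 and 651 to 1082 with 1 mouse left out. The difference of slopes called 102, 24 without mice 8, 17 and 19, 44 to 126 with 1 mouse left out and 0 without mice 1 to 3. All alternatives to the difference of slopes and to the slopes within genotypes, and those without mice 8, 17 and 19, were chosen after seeing the data. No paired analysis was possible because each mouse number occurs once. Mouse number and genotype overlap in part, and what the number stands for is not known here.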
